A study of Mus musculus with 12 samples.

Results

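Selenoproteins are proteins that carry selenocysteine, the selenium-containing amino acid. A set of 10 named genes of this class was described here across the 4 groups of the study: Selenom, Selenof, Selenok, Selenos, Selenot, Selenon, Selenow, Txnrd1, Gpx4 and Selenop. They were picked by name, and all 10 had values in all 12 samples and were among the 12385 genes tested, out of 14907 genes listed. The set was chosen because the response of Selenom to LPS differed between genotypes, so every value of Selenom, and the difference between the LPS responses of every member, is given as a description without a test. The other 9 members were tested in the 4 comparisons between groups.

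Selenocysteine is inserted at a UGA codon, which the ribosome otherwise reads as a stop, and the insertion needs a hairpin in the 3′ untranslated region of the mRNA, the SECIS element, and a dedicated transfer RNA, binding protein and elongation factor. Most selenoproteins are oxidoreductases. Several of those described here sit in or at the membrane of the endoplasmic reticulum (ER), where secreted proteins fold, while the glutathione peroxidases and thioredoxin reductases remove peroxides and reduce disulfides, and Selenop carries selenium out of the cell that makes it.

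The cells were primary mesenchymal cells of the mouse small intestine (C57/Bl6), the connective-tissue cells under the epithelium, grown to passage 3, sorted on GFP and serum starved overnight. By their genotype labels, all 4 groups carry floxed MyD88 and the RosamTmG reporter. The wt groups are labelled MyD88F/F-RosamTmG and the MyD88ko groups ColVIcre-MyD88F/F-RosamTmG, in which Cre is driven by a collagen VI promoter active in part of the mesenchyme. The design text calls the wt cells Cre-positive, and if the genotype label without Cre is the right one, Cre and the deletion cannot be told apart. Each genotype was left untreated or given LPS, the lipopolysaccharide of the bacterial outer membrane, at 2 µg/ml for 6 hours, with 3 samples per group, and untreated cells are called resting below. The labels do not say that replicates came from separate animals, so p-values measure the spread between these samples, which may be technical. The untreated libraries carry a lower and the LPS libraries a higher series of library codes, so an effect of LPS and one of the library series cannot be told apart. Within each treatment the MyD88ko libraries carry lower codes than the wt ones, so the same holds for genotype.

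The values were 3′ read counts per gene (QuantSeq, a method that reads only transcript ends), normalized by the authors and rounded to whole numbers, and are called normalized counts below. Library depth was estimated at 2.5 to 5.3 megareads, which lay behind these values. Myd88 itself was at 98 to 213 in the 6 wt and at 5 to 24 in the 6 MyD88ko libraries, and which exons the deletion removes is not given in the sources used here. Relative to wt, it fell by 3.15 on the log2 scale in resting MyD88ko cells (limma adjusted p = 0.000471) and fell by 3.70 after LPS (7.07e-05). All 12 mesenchymal markers had values, with sums of 45329 to 105079 in resting wt, 72946 to 122628 in LPS-treated wt, 92453 to 115987 in resting MyD88ko and 136289 to 146676 in LPS-treated MyD88ko. Of 12 epithelial markers 5 had values, with sums of 13 to 393, 38 to 53, 5 to 9 and 4 to 33 in the same order. Their high sums were in resting wt replicates 1 and 3 (Krt19 at 166, 0 and 62 and Cldn4 at 213, 7 and 122 in replicates 1, 2 and 3). Muc2 went the other way, at 0 in all untreated libraries. It had 16, 32 and 11 in LPS-treated wt and 4, 0 and 11 in LPS-treated MyD88ko. None of 7 endothelial markers had values in all samples, and leukocyte sums were at most 58, with Ptprc not listed. Smooth muscle sums were 4661 to 5512, 8332 to 9127, 7740 to 9267 and 9724 to 11332 in the same order of groups, so they too were lowest in resting wt. The part of these markers in the results on wt cells was not tested.

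The sequences before the start sites of 3 members are shown because Selenom and Selenow had the highest ratios of LPS to untreated values in wt cells, while Selenos, encoding an ER membrane protein known to be induced by ER stress, had lower values with LPS. Each is the RefSeq (GRCm38.p6) genomic sequence just upstream of the start of the gene, 5′ to 3′ on the strand of the gene. It is 250 bases long for Selenom (chr11:3514434-3514683, plus strand) and Selenos (chr7:66079399-66079648, plus strand) and 219 bases for Selenow (chr7:15922403-15922621, minus strand). Capitals mark a CCAAT box (CCAAT) or a GC box (GGGCGG) on either strand.
Selenom: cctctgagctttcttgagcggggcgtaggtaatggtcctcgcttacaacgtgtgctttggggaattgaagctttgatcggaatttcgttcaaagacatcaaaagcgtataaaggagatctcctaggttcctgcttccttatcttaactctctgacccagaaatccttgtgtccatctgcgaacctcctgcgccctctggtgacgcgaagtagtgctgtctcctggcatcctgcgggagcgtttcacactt
Selenow: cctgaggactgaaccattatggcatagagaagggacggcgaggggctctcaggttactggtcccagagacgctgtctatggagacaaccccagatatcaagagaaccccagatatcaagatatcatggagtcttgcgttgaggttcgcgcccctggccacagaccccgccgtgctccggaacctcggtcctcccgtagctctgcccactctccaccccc
Selenos: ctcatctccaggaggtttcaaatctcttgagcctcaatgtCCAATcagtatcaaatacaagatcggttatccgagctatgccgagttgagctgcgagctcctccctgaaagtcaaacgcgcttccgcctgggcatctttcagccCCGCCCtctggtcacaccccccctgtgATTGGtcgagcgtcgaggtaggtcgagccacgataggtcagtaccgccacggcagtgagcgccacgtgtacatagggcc
The Selenom and Selenow stretches held no match to any of the 6 motifs searched on both strands: the CCAAT box, the GC box, CCACG, the full ER stress element (which holds a CCAAT box and CCACG), the antioxidant response element TGACNNNGC and the NF-kB site. The Selenos stretch held 2 CCAAT boxes, 1 GC box and 3 copies of CCACG, but not the full ER stress element. Among 32851 RefSeq promoter windows of 250 bases, 33.85% held a CCAAT box, 32.74% a GC box, 28.34% CCACG, 10.16% the antioxidant response element, 7.25% an NF-kB site and 0.11% the full ER stress element. The antioxidant response element was matched in the windows before the RefSeq starts of 2 of the 10 members, Txnrd1 and Selenok, of which the Selenok match lies inside the gene as the deposited coordinates give it. Matched likewise were the NF-kB site in 1 member, Selenon, and the full ER stress element in 0. The 10 members have 17 windows, and a member was counted if any of its windows matched. The shares above are of single windows, so the 2 measures are not alike. A match is a match of letters in such a window only.

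Selenom encodes a small thioredoxin-fold protein of the ER lumen. Its mRNA (ENSMUSG00000075702, mm10 chromosome 11, 3514684 to 3517351, plus strand) was lowest in untreated wt cells, intermediate in untreated MyD88ko cells and highest with LPS. Normalized counts were 298, 280 and 305 in resting wt and 1581, 1248 and 1405 in LPS-treated wt. In MyD88ko they were 674, 774 and 841 untreated and 976, 1389 and 904 with LPS. The wt untreated, MyD88ko untreated and MyD88ko LPS groups followed each other without overlap, while MyD88ko with LPS and wt with LPS overlapped. In wt cells the LPS value was 4.76-fold the untreated one (log2 fold change 2.25 ± 0.20 SE), and in MyD88ko cells 1.41-fold (0.49 ± 0.20). Before LPS, MyD88ko cells held 2.58 times the wt level (1.37 ± 0.20), and with LPS they stood at −0.39 ± 0.20 on the same scale. The response of MyD88ko minus that of wt was −1.76 ± 0.285 SE, a description only, since the set was chosen on this contrast. In bulk RNA, fewer cells of a type and less RNA per cell cannot be told apart, for this and every value below. The mesenchymal marker sums also differed between groups, as given above. Col1a1 makes up the largest share of them, and single markers did not all follow the sum. Pdgfra, a receptor of fibroblasts, had 355, 611 and 314 in resting wt and 383, 589 and 380 in LPS-treated wt, against 126, 158 and 73 in resting MyD88ko and 131, 144 and 113 in LPS-treated MyD88ko. Pdgfrb, a receptor of pericytes and fibroblasts, was at 883 to 1443 in the 6 untreated and 513 to 816 in the 6 LPS libraries. The part of these markers in the Selenom levels was not tested.

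**Figure D1:**
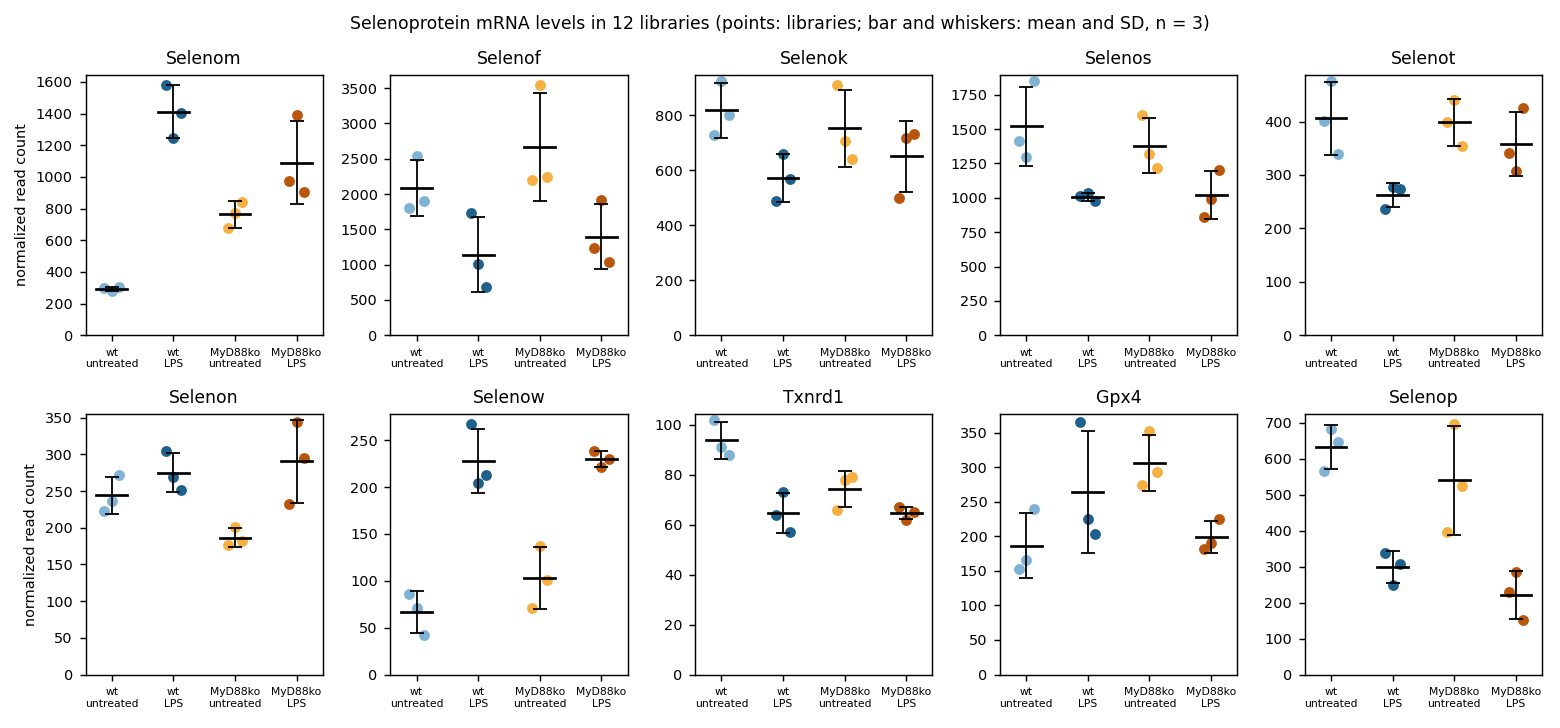
Normalized read count (vertical axis, from 0) of the 10 selenoprotein genes in the 4 groups, with a point per library and the mean and SD of 3 libraries. Selenom runs from a mean of 294 in resting wt to 1411 in LPS-treated wt, with MyD88ko at 763 and 1090, while Selenow is high in both LPS groups and Selenop low in both.

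With LPS in wt cells, 4 of the 9 tested members were called by limma (Benjamini-Hochberg adjusted p under 0.05 over all genes): Selenow rose, and Selenof, Selenot and Selenop fell. Of all genes tested, 19.2% were called in this comparison, 9.55% higher and 9.66% lower. Groups did not overlap for 7 of the 9, 1 higher and 6 lower, against 34.8% of all genes, 17.4% higher and 17.4% lower. In MyD88ko cells LPS gave 2 calls among the 9, Selenow higher and Selenop lower, with 5.98% of all genes called (2.58% higher and 3.40% lower). There, 2 members were higher and 4 lower without overlap, against 25.5% of all genes, 12.2% and 13.3%. The median log2 fold change of the 9 members was −0.53 in wt and −0.22 in MyD88ko, where the medians of all genes were 0.013 and 0.0036. Of these 9 members, Selenow in wt cells had an adjusted p under 0.05 in the authors' deposited tables (0.00533), and 0 had one in MyD88ko cells. The deposited test of Selenom is not given here.

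Besides Selenom, 5 members encode proteins of the ER: Selenof, Selenok, Selenos, Selenot and Selenon. With LPS in wt cells Selenof and Selenot fell, while Selenok, Selenos and Selenon did not pass the test. Selenof (ENSMUSG00000037072, chromosome 3, 144570304 to 144597680) encodes an ER lumen protein that binds the glycoprotein-folding sensor UGGT. It had 1808, 2535 and 1903 in resting wt and 1733, 1010 and 684 in LPS-treated wt, 2203, 3545 and 2246 in resting MyD88ko and 1236, 1917 and 1034 in LPS-treated MyD88ko. In each genotype all LPS libraries lay below all untreated ones, in wt by a narrow gap between 1733 and 1808. It fell 1.94-fold in wt cells (log2 fold change −0.95 ± 0.30 SE, limma adjusted p = 0.0327). In MyD88ko cells the estimate was also −0.95 ± 0.30 and missed the threshold (adjusted p = 0.0722). The difference between both responses was 0.0081 (95% interval −0.88 to 0.90), an interval that leaves room for a difference of nearly the size of the response itself. The wt call was not kept without wt untreated replicate 2 (adjusted p = 0.108) or 3 (0.0586), without wt LPS replicate 2 (0.0844) or 3 (0.176), without both wt untreated replicates 1 and 3 (0.0932), by limma without trend (0.0998) and after quantile normalization (0.0533). Without wt LPS replicate 3 the wt estimate was −0.64. In MyD88ko cells the threshold was passed with a replicate block (adjusted p = 0.0365) and without wt LPS replicate 1 (0.0403) or 3 (0.0461) or MyD88ko LPS replicate 2 (0.0407).

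Selenot (ENSMUSG00000075700, chromosome 3, 58576636 to 58593133) encodes a thioredoxin-fold protein of the ER membrane. Its normalized counts were 401, 476 and 340 in resting wt, 237, 278 and 273 in LPS-treated wt, 400, 441 and 354 in resting MyD88ko and 342, 308 and 425 in LPS-treated MyD88ko. The wt LPS libraries stood below all 9 others, and the MyD88ko groups overlapped. Selenot fell 1.53-fold in wt cells (log2 fold change −0.62 ± 0.21 SE, limma adjusted p = 0.0422), close to the threshold. In MyD88ko it was at −0.16 (adjusted p = 0.712). The wt call was lost in 8 of the 12 fits that leave out 1 library: without wt untreated replicate 1 (0.0920) or 2 (0.157), wt LPS replicate 1 (0.138), 2 (0.0671) or 3 (0.0778), and MyD88ko untreated replicate 1 (0.0545), 2 (0.0513) or 3 (0.0525). Further settings that ended it were a replicate block (0.0515), a fit of the compared groups alone (0.0599), quantile normalization (0.0502), limma without trend (0.0773) and leaving out both wt untreated replicates 1 and 3 (0.0749).

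Selenos and Selenok encode ER membrane proteins that take part in the removal of misfolded proteins, and neither was called. Selenos (ENSMUSG00000075701, chromosome 7, 66079649 to 66089405) had 1417, 1297 and 1847 in resting wt and 1013, 1036 and 978 in LPS-treated wt, with no overlap (log2 fold change −0.57 ± 0.20 SE, limma adjusted p = 0.0510). That value lay just outside the threshold, and it passed in 5 of the alternatives, with an adjusted p of 0.0305 to 0.0476. They were a TMM-like rescaling, a minimum group mean of 50, and the fits without wt untreated replicate 2 or without MyD88ko LPS replicate 1 or 3. In MyD88ko cells it had 1606, 1320 and 1214 at rest and 862, 990 and 1206 after LPS, again without overlap (−0.44, adjusted p = 0.213). Selenok (ENSMUSG00000042682, chromosome 14, 29968308 to 29975074) had 726, 925 and 801 in resting wt and 486, 658 and 568 in LPS-treated wt (−0.52 ± 0.21, adjusted p = 0.0956). Its MyD88ko groups, 909, 705 and 641 untreated and 500, 718 and 730 with LPS, overlapped (−0.22, adjusted p = 0.611).

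Selenon encodes an ER membrane protein tied to calcium handling in muscle (ENSMUSG00000050989, chromosome 4, 134537892 to 134552166, minus strand). It had 223, 237 and 272 in resting wt and 304, 269 and 252 in LPS-treated wt, which overlapped (log2 fold change 0.17 ± 0.21 SE, limma adjusted p = 0.614). In MyD88ko cells it had 176, 201 and 182 at rest and 232, 344 and 295 after LPS. Here all LPS libraries were above all untreated ones, with an estimate of 0.62 ± 0.21 that missed the threshold (adjusted p = 0.0855). Like Selenom, Selenon had estimates above 0 in both genotypes, while those of Selenof, Selenok, Selenos and Selenot were below 0 in both.

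Of 13 tested partners of these ER proteins, such as Vcp, the ATPase that extracts misfolded proteins, and Hspa5, the main ER chaperone, limma called 0 in each of the 4 comparisons, where 19.2%, 5.98%, 1.88% and 1.49% of all genes were called (LPS in wt, LPS in MyD88ko, untreated genotypes and LPS-treated genotypes, an order kept below). At an unadjusted p under 0.05 there were 1, 0, 0 and 1 of the 13, against 3966, 2600, 1923 and 1486 of all 12385 genes. Vcp has a near-identical processed pseudogene (99.0% identity over 2421 bases) with values of 305 to 705, so its counts are uncertain. Hspa5 had 12439, 16138 and 12785 in resting wt and 11410, 11462 and 14157 in LPS-treated wt, and these groups overlapped. The median log2 fold change of the 13 was −0.034 with LPS against untreated for wt and −0.031 for MyD88ko.

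**Figure D2:**
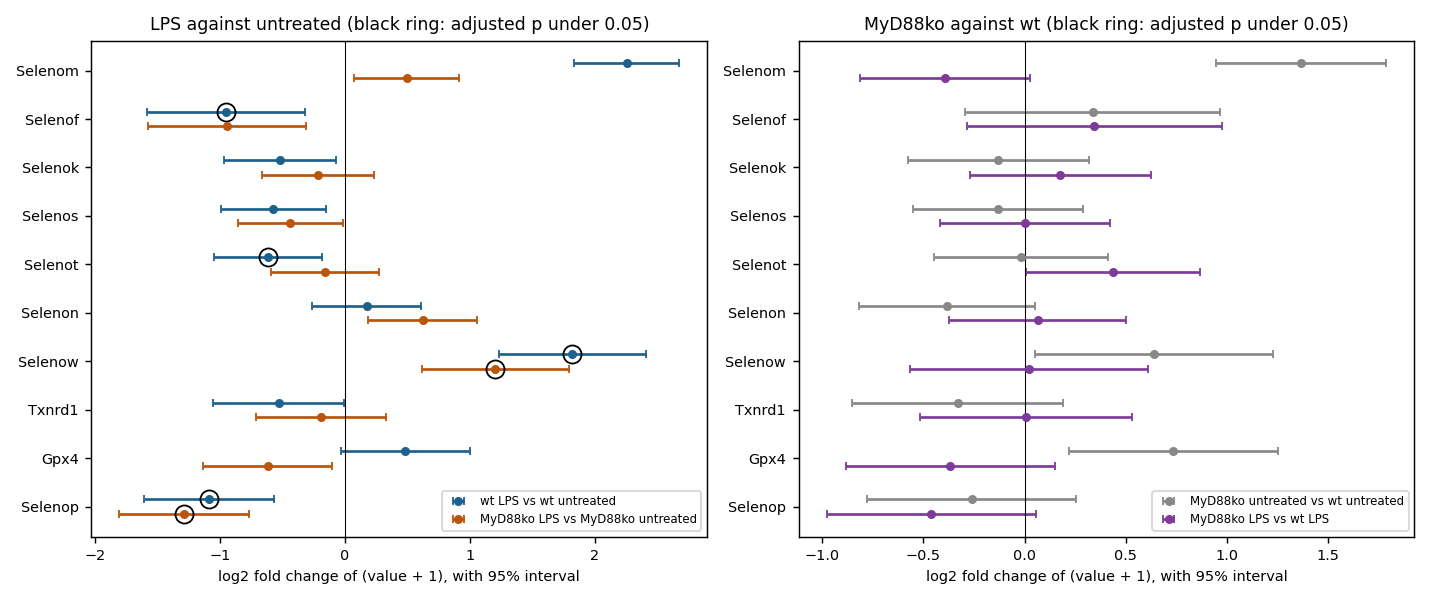
Log2 fold change of (normalized count + 1) with 95% intervals (horizontal axis) for the 10 genes, LPS against untreated in each genotype on the left and MyD88ko against wt in each treatment on the right; black rings mark calls among the 9 tested genes. In the left panel rings stand on Selenow and Selenop in both genotypes and on Selenof and Selenot in wt alone, and the right panel has 0 rings. The intervals of Selenom are a description, since the set was chosen on its LPS response.

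The cytosolic members Selenow, Txnrd1 and Gpx4 each showed another pattern. Selenow encodes a small thioredoxin-fold protein abundant in muscle (ENSMUSG00000041571, chromosome 7, 15917208 to 15922402, minus strand). It had 86, 71 and 42 in resting wt and 267, 204 and 213 in LPS-treated wt, 71, 137 and 101 in resting MyD88ko and 239, 221 and 230 in LPS-treated MyD88ko. All 6 LPS libraries were above all 6 untreated libraries, whatever the genotype. Selenow rose 3.52-fold in wt cells (log2 fold change 1.82 ± 0.28 SE, limma adjusted p = 0.00017) and 2.30-fold in MyD88ko cells (1.20 ± 0.28, adjusted p = 0.0143). The response of MyD88ko minus that of wt was −0.62 ± 0.40. The wt call held in all 12 fits that leave out 1 library, with an adjusted p of at most 0.00211, and when both wt untreated replicates 1 and 3 were left out. The MyD88ko call was not kept without MyD88ko untreated replicate 1 (0.0895) or 3 (0.0510) and by limma without trend (0.0565).

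Txnrd1 encodes the cytosolic thioredoxin reductase, which uses NADPH to keep thioredoxin reduced (ENSMUSG00000020250, chromosome 10, 82859206 to 82897724). Its normalized counts were 102, 91 and 88 in resting wt and 64, 73 and 57 in LPS-treated wt, and in MyD88ko 66, 78 and 79 untreated and 67, 62 and 65 with LPS. The wt untreated libraries were above all 9 others. It was not called with LPS in wt (log2 fold change −0.53 ± 0.25 SE, limma adjusted p = 0.148) or in MyD88ko (−0.19, adjusted p = 0.711).

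Gpx4 encodes the glutathione peroxidase that reduces lipid peroxides in membranes and so protects cells from ferroptosis (ENSMUSG00000075706, chromosome 10, 80047166 to 80056439). It had 153, 166 and 240 in resting wt, 366, 225 and 203 in LPS-treated wt, 274, 352 and 293 in resting MyD88ko and 182, 190 and 225 in LPS-treated MyD88ko. The wt groups overlapped, whereas all MyD88ko LPS libraries were below all untreated MyD88ko libraries. With LPS the estimate was 0.48 ± 0.25 in wt (limma adjusted p = 0.187) and −0.62 ± 0.25 in MyD88ko (adjusted p = 0.151). The latter minus the former was −1.10 ± 0.35 SE, given without a test.

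These Gpx4 values are uncertain, because reads can be split between Gpx4 and a near-identical gene. Gpx4-ps2, a transcribed processed pseudogene, shares 762 aligned bases with Gpx4 at 99.7% identity, and the tables give it more counts than Gpx4 itself. It had 286, 288 and 329 in resting wt, 1376, 841 and 889 in LPS-treated wt, 469, 539 and 459 in resting MyD88ko and 845, 694 and 902 in LPS-treated MyD88ko. In both genotypes all its LPS libraries were above all untreated ones, unlike Gpx4. Summed over both genes, normalized counts were 439, 454 and 569 in resting wt and 1742, 1066 and 1092 in LPS-treated wt, and 743, 891 and 752 in resting MyD88ko and 1027, 884 and 1127 in LPS-treated MyD88ko. The sum rose in wt cells (log2 fold change 1.39 ± 0.21 SE, limma adjusted p = 0.000172, and at most 0.00195 when any 1 library was left out) and was not called in MyD88ko (0.35, adjusted p = 0.376). The estimate for MyD88ko with LPS thus had the opposite sign for the sum and for Gpx4 alone. The sum was chosen after the values were seen. Selenok has 7 and Selenot 1 near-identical copies in the annotation, none with values in all 12 samples.

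**Figure D3:**
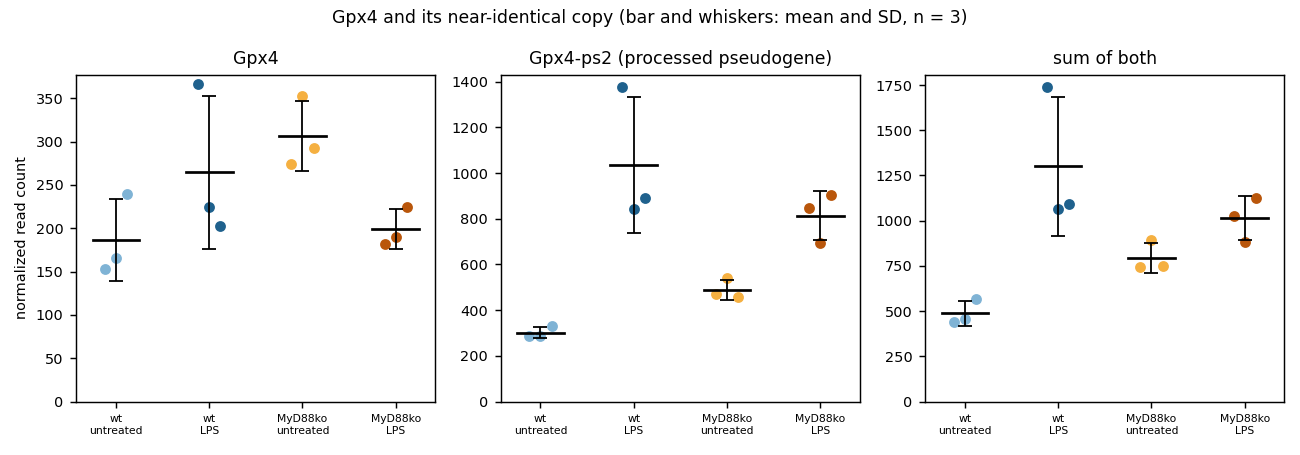
Normalized read counts (vertical axis, from 0) of Gpx4, of its pseudogene Gpx4-ps2 and of their sum in the 4 groups, with a point per library and the mean and SD of 3. Gpx4 alone is lower with LPS in MyD88ko, at 182 to 225 against 274 to 352, while the pseudogene is higher with LPS in both genotypes.

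Selenop encodes the secreted plasma selenoprotein that carries selenium between tissues and is made mainly by the liver (ENSMUSG00000064373, chromosome 15, 3268547 to 3280508). Its normalized counts were 566, 683 and 647 in resting wt and 337, 249 and 308 in LPS-treated wt, and in MyD88ko 396, 697 and 525 untreated and 229, 284 and 152 with LPS. All 6 LPS libraries were below all 6 untreated libraries. Selenop fell 2.13-fold in wt cells (log2 fold change −1.09 ± 0.25 SE, limma adjusted p = 0.0042) and 2.44-fold in MyD88ko cells (−1.29 ± 0.25, adjusted p = 0.00407). Both calls held in all 12 fits that leave out 1 library. Without both wt untreated replicates 1 and 3, which leaves 1 wt untreated library, the wt value was −1.21 and its adjusted p 0.0517. The authors' deposited tables give adjusted p values of 0.116 in wt and 0.174 in MyD88ko. Selenop overlaps Ccdc152 on the opposite strand, and as strand-specific counting is not given in the sources used here, reads of both genes may not be told apart.

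Markers of hepatocytes, the main Selenop-producing cells of the body, moved with Selenop. Of 7 such markers 3 had values (Alb, serum albumin, and the protease inhibitors Serpina1a and Serpina3k), and Apoa1, Ttr, Fgb and Fga were not listed. The 3 summed to 103, 256 and 143 in resting wt and 112, 143 and 170 in resting MyD88ko, against 3, 6 and 13 in LPS-treated wt and 19, 8 and 4 in LPS-treated MyD88ko. Alb had 21, 6 and 20 in resting wt and 13, 20 and 24 in resting MyD88ko, with 0 listed in each of the 6 LPS libraries. Selenop was at 152 to 337 where the 3 markers were at 3 to 19. The cells are labelled as intestinal mesenchyme at passage 3 sorted on GFP. The part of RNA from hepatocytes in the Selenop result was not tested.

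**Figure D4:**
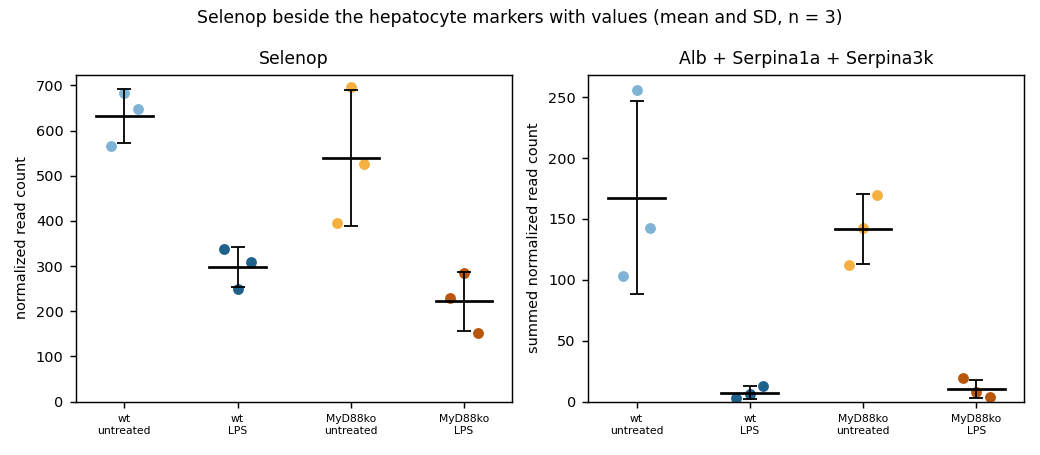
Normalized read count of Selenop (left) and summed normalized count of Alb, Serpina1a and Serpina3k (right) in the 4 groups, vertical axes from 0, with a point per library and the mean and SD of 3. Both are lower in all 6 LPS libraries than in all 6 untreated ones, Selenop at 152 to 337 and the markers at 3 to 19.

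Between genotypes, 0 of the 9 tested members were called by limma, untreated or with LPS. At an unadjusted p under 0.05 there were 2 untreated, Gpx4 and Selenow, and 1 with LPS, Selenot, against 1923 and 1486 of all 12385 genes, and the authors' deposited tables give 0 in both. Of all genes, 1.88% were called at rest, 0.791% higher and 1.09% lower in MyD88ko, and 1.49% with LPS, 0.452% higher and 1.04% lower. Untreated, Gpx4 was 0.73 higher in MyD88ko on the log2 scale without overlap (limma adjusted p = 0.139), and Selenon and Txnrd1 were at −0.38 and −0.33 without overlap (adjusted p = 0.392 and 0.574). These are 1 member higher and 2 lower without overlap, against 10.5% and 9.89% of all genes, together 20.4%. Selenow stood at 0.64 (adjusted p = 0.279), with overlap. With LPS, Selenot was at 0.44 without overlap (adjusted p = 0.408), 1 member of 9, against 7.54% of all genes higher and 8.31% lower in this way, together 15.8%. The median log2 fold change of the 9 was −0.13 untreated and 0.022 with LPS, where the medians of all genes were 0 and −0.00051.

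Of 14 other mouse selenoproteins 11 were tested, and Gpx2, Dio1 and Selenov were not listed. In wt cells LPS gave 1 call higher and 1 lower among them, and in MyD88ko cells 1 higher and 0 lower. These 2 and 1 of 11 stand beside 19.2% and 5.98% of all genes, and so are close to the background. Gpx3, the secreted glutathione peroxidase, had 661, 464 and 477 in resting wt and 1019, 782 and 817 in LPS-treated wt, and in MyD88ko 493, 694 and 670 untreated and 1031, 1098 and 1068 with LPS. All its LPS libraries were above all untreated ones. It rose by 0.72 ± 0.21 on the log2 scale in wt (limma adjusted p = 0.0194) and by 0.80 ± 0.21 in MyD88ko (adjusted p = 0.0250). The wt call was not kept without wt untreated replicate 2 (0.0747) or 3 (0.0619) and wt LPS replicate 1 (0.0981), and the MyD88ko call without MyD88ko untreated replicate 1 (0.139), 2 (0.0508) or 3 (0.0560) and MyD88ko LPS replicate 2 (0.0772). Both were lost by limma without trend (0.0547 and 0.0812), and the wt call also without both wt untreated replicates 1 and 3 (0.0565).

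Selenoh, a nucleolar redox protein, fell in wt cells by 1.08 ± 0.29 on the log2 scale (limma adjusted p = 0.0110), from 188, 188 and 150 to 68, 89 and 90. Its MyD88ko libraries, 118, 100 and 225 untreated and 158, 110 and 110 with LPS, overlapped (−0.16, adjusted p = 0.804). The wt call was not kept without wt LPS replicate 1 (0.0581) or with both wt untreated replicates 1 and 3 left out (0.0940). Between genotypes limma called 0 of the 11, with 2 at an unadjusted p under 0.05 in each treatment. That unadjusted level was reached by 1923 of all 12385 genes untreated and 1486 with LPS, and 1.88% and 1.49% were called. The median of the 11 was 0.13 with LPS against untreated for wt and −0.13 for MyD88ko, with 7 and 5 of the 11 estimates above 0.

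**Figure D5:**
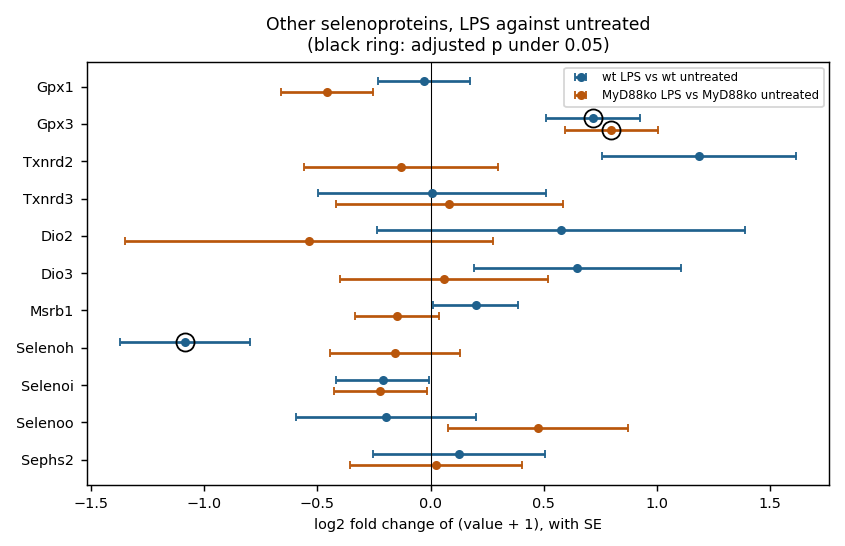
Log2 fold change of (normalized count + 1) with SE (horizontal axis), LPS against untreated, for the 11 other tested selenoproteins in wt and MyD88ko cells; black rings mark an adjusted p under 0.05. Rings stand on Gpx3 in both genotypes, at 0.72 and 0.80, and on Selenoh in wt, at −1.08.

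Of 13 genes that make selenoproteins or handle selenium, 2 rose and 2 fell with LPS in wt, 0 rose and 2 fell with LPS in MyD88ko, and 1 was higher in untreated MyD88ko than in untreated wt. With LPS, 0 differed between genotypes by limma (1 at an unadjusted p under 0.05, against 1486 of all 12385 genes). Of all genes 19.2%, 5.98%, 1.88% and 1.49% were called in these comparisons. The median log2 fold change of the 13 with LPS was 0.035 in wt and −0.19 in MyD88ko. Rpl30, a ribosomal protein that also binds the SECIS element, had 1227, 1421 and 1169 in resting wt and 513, 677 and 497 in LPS-treated wt, and 1472, 1364 and 1378 in resting MyD88ko and 625, 682 and 859 in LPS-treated MyD88ko. All 6 LPS libraries were below all 6 untreated ones. It fell by 1.19 ± 0.20 on the log2 scale in wt (limma adjusted p = 0.000312) and by 0.97 ± 0.20 in MyD88ko (adjusted p = 0.00557), in all 12 fits that leave out 1 library. Sepsecs, the enzyme that makes selenocysteine on its transfer RNA, fell in wt to a mean of 65.7, a 2.00-fold change (adjusted p = 0.0122), a call not kept without wt untreated replicate 2 (0.0551), wt LPS replicate 1 (0.0549) or 2 (0.0541), and both wt untreated replicates 1 and 3 (0.0652).

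Secisbp2l, a relative of the SECIS-binding protein, rose in wt by 1.09 ± 0.32 on the log2 scale, between means of 51.7 and 112 (limma adjusted p = 0.0206). Its call was not kept without wt untreated replicate 1 (0.0576) or 3 (0.0744), wt LPS replicate 2 (0.0829) or 3 (0.0660), and both wt untreated replicates 1 and 3 (0.350). Trnau1ap, a protein that binds the selenocysteine transfer RNA, fell in MyD88ko from 165 to 86.7 (−0.95 ± 0.26, adjusted p = 0.0359). That call was not kept without any MyD88ko untreated replicate (0.0651, 0.0708 and 0.173), without MyD88ko LPS replicate 1 (0.127) or 3 (0.0895), in a fit of the compared groups alone (0.0770) and by limma without trend (0.0768). Sars, the synthetase that charges this transfer RNA with serine, rose in LPS-treated wt (0.64, adjusted p = 0.0401) and was higher in untreated MyD88ko than in untreated wt (0.83, adjusted p = 0.0484). Both Sars calls rest near the threshold. The first was kept in 3 of 12 fits that leave out 1 library (without wt LPS replicate 1 and without MyD88ko LPS replicate 1 or 3, 0.0506 to 0.144 otherwise) and the second in 2 (without MyD88ko LPS replicate 1 or 3, 0.0529 to 0.163 otherwise). Without both wt untreated replicates 1 and 3 they were at 0.212 and 0.440, by limma without trend at 0.0582 and 0.105, and in fits of the compared groups alone at 0.0663 and 0.0588, and the second was also not kept with a replicate block (0.0569), quantile normalization (0.0537) or no low-value filter (0.0561).

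The thioredoxin and glutathione partners of these enzymes moved in both directions. Of 19 tested, 5 rose and 1 fell with LPS in wt, 0 rose and 4 fell with LPS in MyD88ko, and 2 were higher in untreated MyD88ko than in untreated wt. With LPS, limma called 0 between genotypes, with 5 at an unadjusted p under 0.05. In that comparison 1486 of all 12385 genes reached this unadjusted level, and 1.49% were called. Of all genes, LPS gave 9.55% higher and 9.66% lower in wt and 2.58% higher and 3.40% lower in MyD88ko, and 0.791% were higher in untreated MyD88ko. The median of the 19 with LPS was 0.013 in wt and 0.14 in MyD88ko. In wt, mitochondrial thioredoxin Txn2 rose by 1.07 (limma adjusted p = 0.00371) and the peroxiredoxin that it reduces, Prdx3, by 0.98 (adjusted p = 0.00839). Slc3a2, the heavy chain of the cystine transporter, rose by 0.87 (adjusted p = 0.00653). These 3 calls held whichever library was left out and were not kept without both wt untreated replicates 1 and 3 (0.0654, 0.225 and 0.228). Gclc, the catalytic subunit for glutathione synthesis, rose by 1.33 (adjusted p = 0.0134), a call not kept without wt untreated replicate 2 (0.0693) and wt LPS replicate 1 (0.0588) or 3 (0.0576).

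Prdx4, the peroxiredoxin of the ER, had 179, 187 and 154 in resting wt, 121, 129 and 121 in LPS-treated wt, 366, 679 and 465 in resting MyD88ko and 194, 236 and 256 in LPS-treated MyD88ko. Untreated MyD88ko libraries were above all others. Prdx4 was 1.49 ± 0.23 higher in untreated MyD88ko on the log2 scale (limma adjusted p = 0.00127) and fell by 1.10 ± 0.23 with LPS in MyD88ko (adjusted p = 0.0073). The first call was not kept without both wt untreated replicates 1 and 3 (0.119) and the second without MyD88ko untreated replicate 2 (0.0630). Slc3a2 was also higher in untreated MyD88ko (0.94, adjusted p = 0.0244), a call that ended on leaving out wt untreated replicate 1 (0.141) or 3 (0.0673), MyD88ko untreated replicate 2 (0.0790) or 3 (0.184), or both wt untreated replicates 1 and 3 (0.588), and with limma without trend (0.106).

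In LPS-treated MyD88ko, the cytosolic peroxiredoxins Prdx1 (−0.85, limma adjusted p = 0.0226) and Prdx2 (−0.61, adjusted p = 0.0496) and the lipid enzyme Acsl4 (−0.99, adjusted p = 0.0228) also fell. Acsl4 fell in wt as well (−0.92, adjusted p = 0.0144), a call that ended on leaving out wt untreated replicate 3 (0.0865), wt LPS replicate 2 (0.0685) or both wt untreated replicates 1 and 3 (0.359), and with limma without trend (0.0509). Prdx1 and Prdx2 have near-identical pseudogenes with values in these tables, so their counts are uncertain. The Prdx2 call was kept in 1 of 12 fits that leave out 1 library (without wt untreated replicate 3) and was 0.0513 to 0.142 in the others. It was at 0.0626 with a replicate block, 0.0717 in a fit of the compared groups alone, 0.0743 after quantile and 0.0527 after TMM-like rescaling, 0.0516 with a pseudocount of 5, 0.0575 with no low-value filter and 0.0560 with both wt untreated replicates 1 and 3 left out. The Prdx1 call was not kept without any MyD88ko untreated replicate (0.0860, 0.0933 and 0.0542) or MyD88ko LPS replicate 3 (0.0752), and the Acsl4 call without MyD88ko untreated replicate 1 (0.120) or 2 (0.0781) or MyD88ko LPS replicate 3 (0.0766). By limma without trend the 3 genes in MyD88ko had adjusted p values of 0.0843, 0.0972 and 0.0832.

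Of 6 relatives that carry cysteine in place of selenocysteine or belong to the same enzyme families, 0 rose and 2 fell with LPS in wt, and limma called 0 in the other 3 comparisons (1, 2 and 1 at an unadjusted p under 0.05 for LPS in MyD88ko, untreated genotypes and LPS-treated genotypes). Of all genes 19.2%, 5.98%, 1.88% and 1.49% were called in these comparisons. An unadjusted p under 0.05 was reached by 2600, 1923 and 1486 of all 12385 genes in the last 3 of them. The median of the 6 with LPS was −0.36 in wt and −0.29 in MyD88ko. Both genes that fell encode methionine sulfoxide reductases. Msrb3 fell by 0.67 ± 0.20 (limma adjusted p = 0.0250) and Msrb2, at low counts, from a mean of 44 to 13.3 (adjusted p = 0.0144). Msrb3 lost its call without wt untreated replicate 2 (0.0843) or 3 (0.101), wt LPS replicate 2 (0.0864) or 3 (0.0600), both wt untreated replicates 1 and 3 (0.0549) and by limma without trend (0.0657). Msrb2 lost it without wt untreated replicate 1 (0.0535), wt LPS replicate 2 (0.0700) or 3 (0.0575) and both wt untreated replicates 1 and 3 (0.181).

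The genes most like Selenom over the 12 samples were ranked by Pearson r of log2 values, as a description, since the samples share 4 groups. Ranked were 10927 tested protein-coding genes, leaving out predicted gene names and symbols that occur more than once. The 5 highest were Tpgs1, a subunit of the tubulin polyglutamylase complex (r = 0.982, Spearman rho = 0.965), Rab4b, a small GTPase of endosomes (0.975, 0.965), Banf1, a chromatin-binding protein of the nuclear envelope (0.973, 0.937), Irf2, an interferon regulatory factor (0.964, 0.881), and Sqstm1, the autophagy receptor p62 (0.961, 0.944). Sqstm1 had 1847, 2011 and 1721 in resting wt, 4755, 3908 and 3742 in LPS-treated wt, 2374, 2816 and 2990 in resting MyD88ko and 3526, 3624 and 2826 in LPS-treated MyD88ko. Like Selenom, it was lowest in resting wt, followed by resting MyD88ko, although its MyD88ko groups overlapped. Rab4b shares 1280 identical bases with Gm21983, which has nearly the same values, so reads of both cannot be told apart. Banf1 overlaps Eif1ad in the annotation, whose values did not follow the same order of groups. Among the other members Selenow was the most like Selenom (r = 0.868), and 142 of 10927 genes were more like it. Txnrd1 had the most negative r (−0.878), followed by Selenos (−0.761), Selenot (−0.688), Selenok (−0.679) and Selenop (−0.672).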

How the data were processed

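The series measured 3′ mRNA read counts in 12 samples, 3 in each of 4 groups. Per the submitters' processing notes, the build was mm10 and the tools included Bowtie2, TopHat2 and DESeq, with no versions given. The authors deposited 4 comparison tables, whose expression values are scores: normalized counts, rounded to integers, per the file headers and values. Of 166719 values that stand in a pair of tables, 0 differed, and 0 value columns went unmapped. The tables also hold the authors' deposited p-value and adjusted p and a deposited log2 fold change, which are quoted as theirs. Members, lists and alternatives were chosen with earlier results of these data known.

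Values were tested as log2(value + 1) with limma 3.58.1 (trend, robust empirical Bayes, R 4.3.3) in 1 fit of 12 samples with 4 group coefficients and 8 residual degrees of freedom. Genes were tested if every sample had a value and any group mean reached 10. P-values are two-sided, with Benjamini-Hochberg adjustment over 12385 genes at 0.05. Folds of low genes are drawn toward 1. Size factors of 0.6341 to 1.2917, read from the spacing of low values, gave the depth up to a common factor (largest error on simulated data 0.002). Near-identical copies were found with BLAST 2.17.0 among GENCODE M21 transcripts (at least 90% identity over 200 bases). Promoter windows are from RefSeq GRCm38.p6; motifs were searched in the whole 250 bases, and a printed sequence ends where the gene starts in the deposited coordinates. Named genes were the 10 members, Myd88, up to 4 called genes per list and comparison with the smallest p, the 5 genes most like Selenom, and leading markers; Hspa5, Vcp and Gpx4-ps2 were named after their values were seen. Alternatives were other normalizations, pseudocounts, low-value filters, limma without trend, only the groups compared, a replicate block, leaving out libraries, the authors' adjusted p, and Gpx4 summed with its pseudogene.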

Additional observations from a re-analysis of the deposited data

Results flagged for a closer look

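Selenom and Gpx4 were the members for which every library of one group lay on one side of its comparison group's mean and every library of the other group on the opposite side. The difference was not tested for either gene, since the set was chosen on this contrast of Selenom and the contrast was then left without a test for every member. For Selenom, MyD88ko against wt was 1.37 untreated and −0.39 with LPS, on the log2 scale. For Gpx4, LPS against untreated was 0.48 in wt and −0.62 in MyD88ko, and MyD88ko against wt was 0.73 untreated and −0.37 with LPS. The Gpx4 values exclude the pseudogene described above.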

How the results depend on the processing

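The difference between the Selenom responses was −1.76, stayed between −1.83 and −1.74 under the other settings and between −1.95 and −1.64 when 1 library was left out. Limma without trend, the low-value filters and a replicate block cannot change this value. Of the 9 members, 4 were called with LPS in wt. The count was 2 after quantile normalization and by limma without trend, 1 without both wt untreated replicates 1 and 3 (chosen after seeing the data, with the lone library assumed to vary like the others), 1 by the authors' deposited adjusted p, and 2 to 5 when 1 library was left out. In MyD88ko 2 were called, against 1 by limma without trend, 0 by the authors' adjusted p and 1 to 3 without 1 library. Between genotypes the count was 0 in every setting run.

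Same-numbered samples had correlations of deviations from −0.114 to 0.171, over 0.1 in 2 of 12 pairs. Since not every pair passed 0.1, the numbers were not taken to pair the samples. As a hint from the data, samples correlated best with their own number in 14 of 24 checks. These run over both sides of the 4 comparisons, so samples enter more than once. Among the 14 were 6 of 6 in the comparison of wt LPS with wt untreated. With a replicate block the counts were 3 in wt, 3 in MyD88ko and 0 in both genotype comparisons. Selenom's difference cannot change with such a block, since every group holds the same replicate numbers.

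Over all genes, 2380 were called with LPS in wt, against 1570 without wt LPS replicate 1, 973 without both wt untreated replicates and 565 by the authors' adjusted p. With LPS in MyD88ko 741 became 425 without trend, 106 by the deposited adjusted p, and 434, 337 and 382 with MyD88ko untreated replicate 1, 2 or 3 left out. Between untreated genotypes 233 became 74 without trend, 83, 416 and 150 with wt untreated replicate 1, 2 or 3 left out, 88 and 64 with MyD88ko untreated replicate 2 or 3 left out, and 36 without both wt untreated replicates. With LPS 185 became 112 without trend, 85 and 122 without wt LPS replicate 1 and 2, 113 without MyD88ko LPS replicate 2, and 77 by the authors' adjusted p. The cause was not tested. Of the fold changes of single genes, 1210 values under alternatives kept their side of the threshold, 10 passed it anew, 136 no longer passed, and 0 changed sign where called. Those that kept their side include members not called in the main fit. Many settings, such as limma without trend or leaving out a library of another group, cannot change the sign.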
